A study of Mus musculus with 7 samples.

Results

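Leukaemia inhibitory factor (LIF) signalling was followed through 9 genes, chosen by name and matched by symbol to 1 Ensembl gene each of the 29267 genes in the RNA-Seq tables. They were the ligand Lif, the receptor chains Lifr, Il6st and Osmr, the kinases Jak1 and Jak2, the transcription factor Stat3, and its targets Socs3 and Pim1. RNA was measured in 7 mouse libraries, 1 per group, so no difference had a replicate check and no p-value was computed. Of these groups 4 were sorted cells (mES-Oct4GFP+ and mES-Oct4GFP-, or with the other medium 5C-Oct4GFP+ and 5C-Oct4GFP-) made from OG2 mouse embryonic fibroblasts (MEFs) of mid-gestation embryos, which carry an egfp reporter under the Oct4 promoter GOF18ΔPE. These MEFs had been infected with retroviruses for Oct4, Sox2, Klf4 and c-Myc and cultured in mES medium, which holds serum, or in the serum-free defined 5C medium, which holds basic fibroblast growth factor (bFGF). Fluorescence-activated cell sorting then split each culture by GFP. 5C-Oct4GFP+ (naive) and 5C-Oct4GFP+ (primed) cells came from 5C-Oct4GFP+ cells converted in naive medium, which adds inhibitors of GSK3 and MEK, or in primed medium, and were labelled with 20 passages, as was the embryonic stem cell line R1 in the primed state (R1 ESCs-primed). Per the study's methods LIF was a component of the mES, 5C and naive media and not of the primed media. The primed state of R1 cells was induced over MEF feeders with bFGF and activin A, which were then replaced by the GSK3 inhibitor CHIR99021 and the Wnt inhibitor IWR-1 on serum-coated plates.

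LIF binds LIFR, which pairs with gp130, the product of Il6st, and the kinases JAK1 and JAK2 bound to the receptor chains then phosphorylate STAT3. STAT3 dimers enter the nucleus and switch on target genes, among them Socs3, whose product blocks the receptor and its kinases in a feedback loop. In mouse embryonic stem cells this route holds the naive state, whereas primed cells, which resemble the post-implantation epiblast, rely on FGF and activin signalling. Oncostatin M, a related ligand, signals in the mouse through gp130 paired with OSMR, a chain known from fibroblasts and other stromal cells.

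All 9 genes are protein-coding, and they lie on 6 chromosomes in GENCODE M21 (GRCm38). Lifr (chr15:7090614-7197489, plus strand) and Osmr (chr15:6813577-6874969, minus strand) lie 215644 bases apart. Lif (chr11:4257557-4272514, plus strand) lies 16530 bases from the oncostatin M gene Osm (chr11:4236420-4241026, plus strand). Stat3 (chr11:100885098-100939540, minus strand) shares 72 exon bases with Stat5a, Pim1 (chr17:29490753-29496112, plus strand) 488 with Gm26885, and Jak1 (chr4:101152367-101265282, minus strand) 4 with Raver2. The library kit does not mark strand, so reads from shared bases cannot be assigned to one gene of a pair by strand. Il6st is at chr13:112464070-112510086 on the plus strand, Jak2 at chr19:29251828-29313080 on the plus strand, and Socs3 at chr11:117966079-117970047 on the minus strand.

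STAT dimers are known to bind the palindrome TTCNNNGAA, which reads alike on both strands. RefSeq promoter windows of GRCm38.p6, from 250 bases before to 50 after a gene's start, were found for all 9 genes, 11 windows in all. The motif was in 1 of these 11 windows, that of Socs3, and in 2726 of 32851 windows of all genes (8.30%). The part of the Socs3 window that holds it is shown because Socs3 had the widest range after Osmr among the 9 genes. It lies at chr11:117969467-117969616 on the minus strand, from 250 to 101 bases before the RefSeq start, and outside every Socs3 exon of GENCODE M21. It is written 5′ to 3′ with the motif, whose first base is 154 bases before the start, in capitals.
Socs3: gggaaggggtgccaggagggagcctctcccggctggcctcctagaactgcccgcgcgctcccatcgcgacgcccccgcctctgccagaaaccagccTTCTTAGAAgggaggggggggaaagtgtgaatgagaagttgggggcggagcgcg
A match of letters does not show that STAT3 was bound there, and its absence from the other 10 windows speaks only of those windows.

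The libraries summed to between 6108252 and 11496615 expected counts. Levels are given in TPM, the abundance of a gene's transcripts scaled by gene length and by library, and ratios of TPM carry an exact 95% Clopper-Pearson interval from the rounded counts. These intervals cover counting error only, not the spread between cultures. A gene was counted as past 2-fold when log2(TPM + 1) differed by at least 1 and its TPM was at least 1 in either library. The labels were set against listed marker genes. Summed over 10 fibroblast markers, the level was highest in the sorted GFP- libraries (596 TPM from mES and 281 from 5C medium), then 236 in R1 ESCs-primed and 81.3 in 5C-Oct4GFP+ (primed) cells, and between 11.1 and 15.8 in the other 3 libraries. Of 8 primed markers 7 were past 2-fold lower in naive than in primed cells, beside 22.2% of all genes. Lef1 was the exception, at 45.7 against 27.45 TPM. Fgf5 was at 175 and 139 TPM in the converted and R1 primed libraries and at 0.09 TPM in the naive library. Against mES-Oct4GFP+ cells, 5C-Oct4GFP+ cells had 3 of the 8 past 2-fold higher and 1, T, lower, beside 13.7% and 13.5% of all genes. The 3 were Otx2 at 189, Dnmt3b at 366 and Fgf5 at 11.7 TPM. In mES-Oct4GFP- and 5C-Oct4GFP- cells Otx2 was at 40.1 and 26.5, Dnmt3b at 49.4 and 104, and Fgf5 at 19.0 and 18.1 TPM. The pluripotency gene Zfp42 was at 355 TPM in naive, 337 in mES-Oct4GFP+ cells and 219 in 5C-Oct4GFP+ cells. It was at 0 in 5C-Oct4GFP+ (primed) cells, at 6.02 in R1 ESCs-primed, and at 1.31 and 14.1 in mES-Oct4GFP- and 5C-Oct4GFP- cells. Of the 8 pluripotency markers 5 were past 2-fold higher in naive than in primed cells and 2, Lin28a and Tdgf1, lower, beside 16.7% and 22.2% of all genes. Pou5f1 was at 1698 TPM in both. In mES-Oct4GFP+ against mES-Oct4GFP- cells 5 were higher and 2 lower, beside 17.9% and 28.8%. The 2 were Pou5f1, at 1321 against 3640 TPM, and Lin28a, at 24.2 against 75.9. In 5C medium 5 were higher in GFP+ cells and none lower, beside 8.45% and 22.6%. Pou5f1 (Oct4) and Sox2 were also delivered as retroviral cDNAs, which may be counted with the cells' own genes. Leukocyte markers summed to at most 61.1 TPM and were led by Cd68, while endothelial markers summed to between 3.36 and 105 TPM. The highest endothelial sum, in mES-Oct4GFP+ cells, was mostly Pecam1 at 96.9 TPM, which the study counts among naive markers. Tek was at 40.4 TPM in 5C-Oct4GFP- cells, and Cdh5 did not pass 7.07 TPM in any library.

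A pair of library orders recurred among the 9 genes. Lifr, Il6st, Stat3, Socs3 and Pim1, 5 of 9, had their 2 lowest levels in the primed libraries, a pattern that 12.3% of all 17733 genes at 1 TPM or more in any library shared. Osmr, Jak1, Jak2 and Stat3, 4 of 9, had their 2 highest levels in the Oct4GFP- libraries, as did 22.7% of those genes. Stat3 was the member with both. In bulk RNA, fewer cells of a type and less RNA per cell cannot be told apart.

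**Figure D1:**
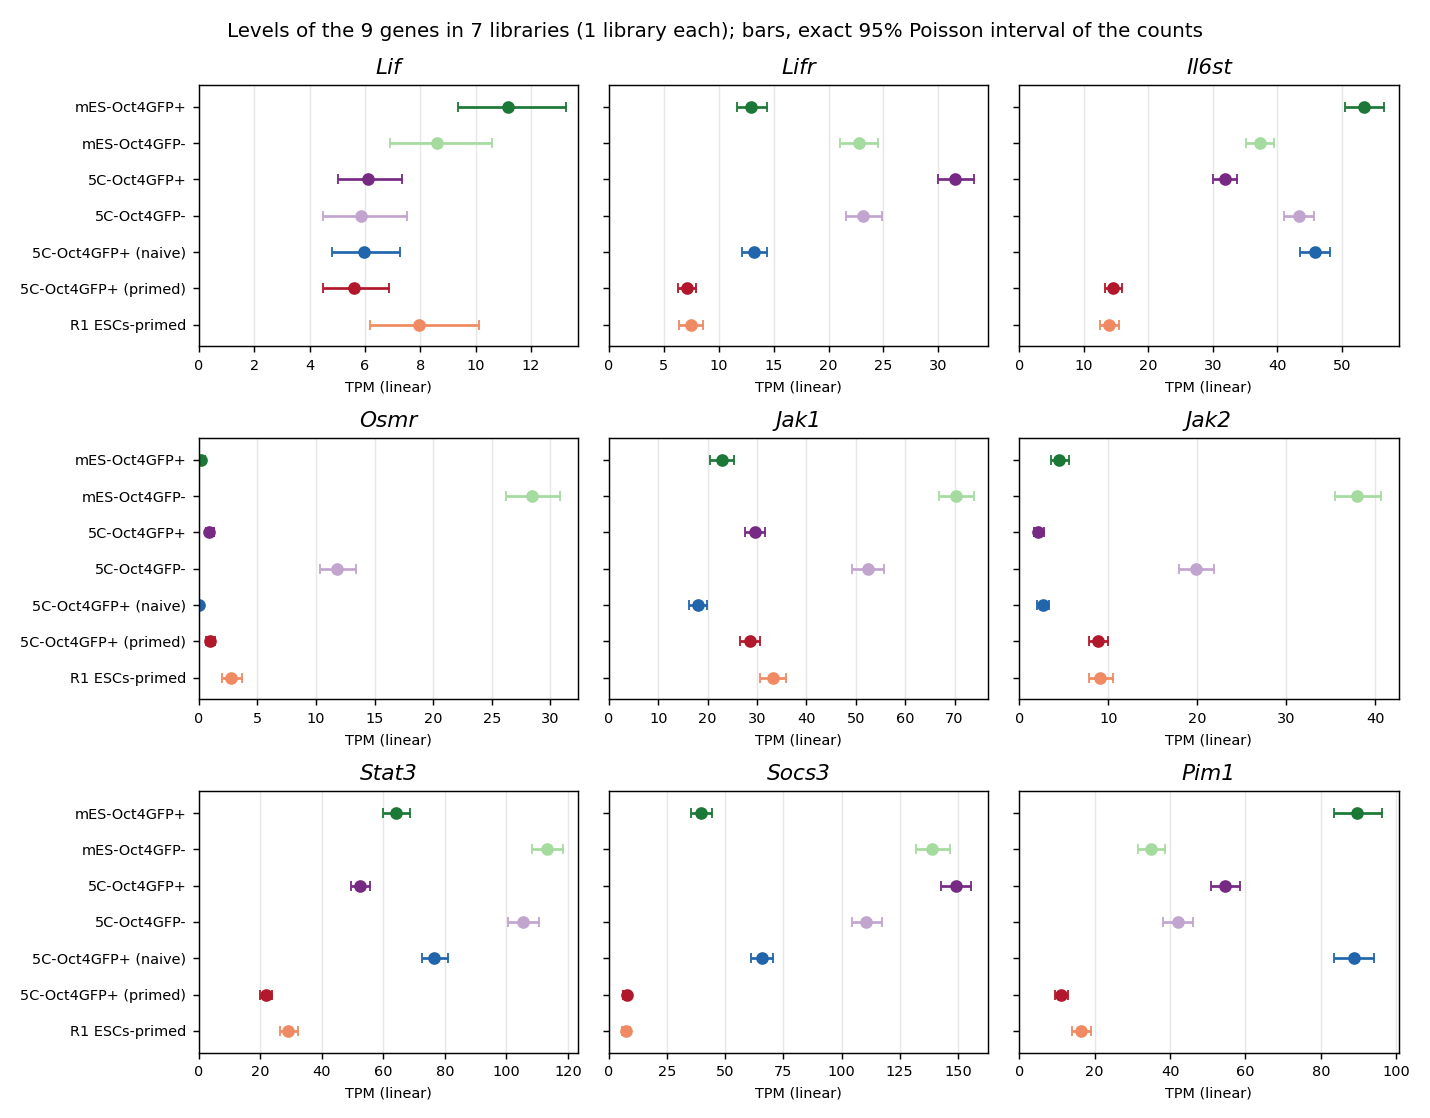
TPM (x axis, linear, from 0) of the 9 genes in the 7 libraries (y axis), with exact 95% Poisson intervals of the counts as bars. Socs3, Pim1, Stat3, Il6st and Lifr were lowest in the 2 primed libraries, and Osmr, Jak1, Jak2 and Stat3 were highest in the 2 Oct4GFP- libraries.

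The ligand itself varied least. Lif, which encodes the secreted cytokine, was at 11.2 TPM in mES-Oct4GFP+ cells and then, in falling order, at 8.61 in mES-Oct4GFP- cells, 7.96 in R1 ESCs-primed, 6.10 in 5C-Oct4GFP+, 5.95 in naive, 5.87 in 5C-Oct4GFP- and 5.60 in primed cells. None of the 6 pairs of neighbours in this order differed beyond counting error, as 61 to 131 counts lay behind each value. Its length as RSEM weighted it by transcript ranged from 2187 bases in R1 ESCs-primed to 3518 in mES-Oct4GFP+ cells. The 3 annotated Lif transcripts are 3798, 4026 and 390 bases long. Counts scaled to library size alone (CPM), which take no account of length, spanned 2.93-fold for Lif, against 2.0-fold in TPM, and were 21.4 in mES-Oct4GFP+ and 10.2 in mES-Oct4GFP- cells.

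Of 9 other ligands of the interleukin-6 family, Osm varied most. Its level was 37.5 TPM (262 counts) in mES-Oct4GFP+, 32.5 in naive and 11.6 in 5C-Oct4GFP+ cells. It was 0.53 in 5C-Oct4GFP- and 0.23 (1 count) in primed cells, and no count was found in mES-Oct4GFP- cells or R1 ESCs-primed, where 3 counts would have given 0.47 and 0.54 TPM. No library had both Osm and Osmr at 1 TPM or more. Clcf1, a ligand of the ciliary neurotrophic factor receptor, was at 6.63 and 6.78 TPM in the sorted GFP- libraries with mES and 5C medium and between 0.37 and 3.02 in the other 5 libraries. Ctf1, encoding cardiotrophin 1, stayed between 5.23 and 7.25 TPM, and Il27 and Il31 had no count in any library.

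**Figure D2:**
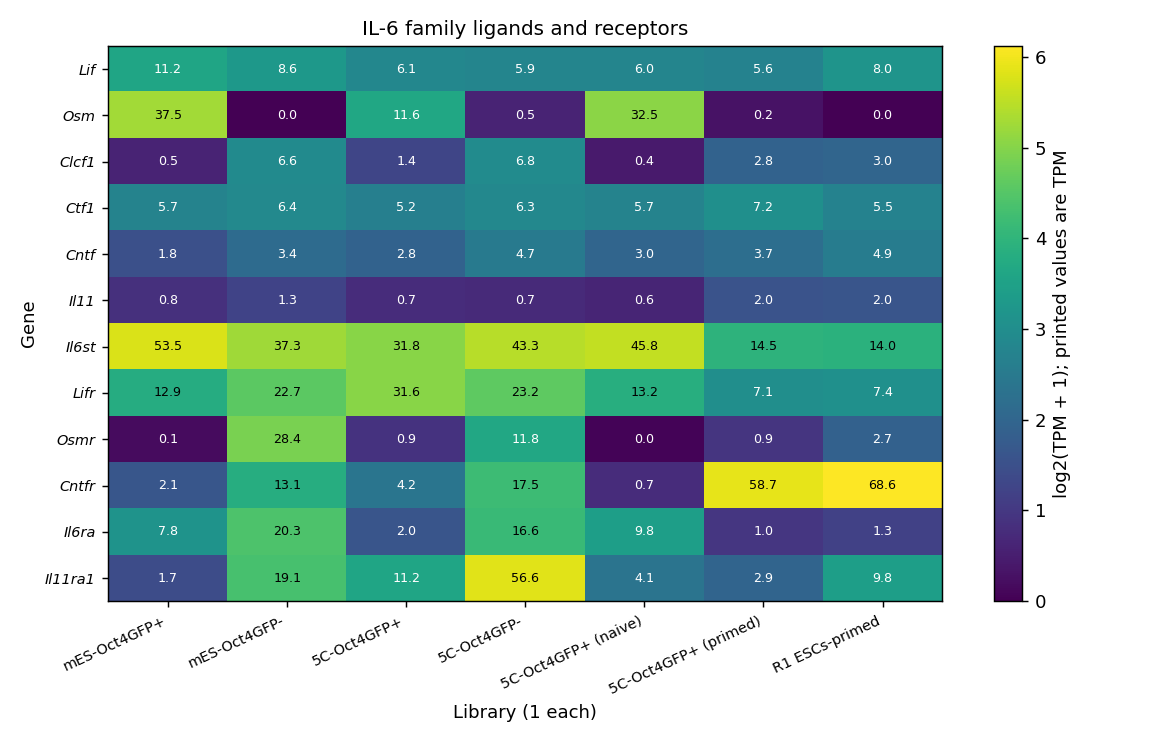
Heat map of log2(TPM + 1) for ligands and receptor chains of the interleukin-6 family (rows) in the 7 libraries (columns), with TPM printed in each cell. Osm and Osmr were high in different libraries, and Cntfr was highest in the 2 primed libraries, at 58.7 and 68.6 TPM.

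The 3 receptor chains had 3 different profiles. Il6st, the chain shared by the whole family, was at 53.5 TPM in mES-Oct4GFP+, 45.8 in naive, 43.3 in 5C-Oct4GFP-, 37.3 in mES-Oct4GFP- cells and 31.8 in 5C-Oct4GFP+ cells, against 14.5 in primed cells and 14.0 in R1 ESCs-primed. The other 5 libraries were all above both primed libraries, and the gap between the lowest of them and the higher primed library was 2.19-fold (interval 1.97 to 2.44). Lack of LIF coincided with the primed state and the other components of primed culture, so these cannot be told apart.

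Lifr, the chain that binds LIF, was at 31.6 TPM in 5C-Oct4GFP+, 23.2 in 5C-Oct4GFP-, 22.7 in mES-Oct4GFP-, 13.2 in naive and 12.9 in mES-Oct4GFP+ cells, 7.43 in R1 ESCs-primed and 7.10 in primed cells. The levels fell into 4 steps: 5C-Oct4GFP+ alone at the top, the 2 Oct4GFP- libraries, naive with mES-Oct4GFP+, and the primed pair, and only the steps between them exceeded counting error. Because Lifr and Il6st did not move together, their ratio changed. Lifr had 0.24 TPM per TPM of Il6st in mES-Oct4GFP+ cells (interval 0.21 to 0.27) and 0.29 in naive cells, between 0.49 and 0.61 in the Oct4GFP- and primed libraries, and 0.99 in 5C-Oct4GFP+ cells (0.92 to 1.07).

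Osmr was at 28.4 TPM (586 counts) in the sorted GFP- cells with mES medium and at 11.8 (234 counts) with 5C medium. In the Oct4GFP+ cells it was at 0.14 TPM (2 counts) with mES medium, 0.87 (27 counts) with 5C medium, 0.04 (1 count) after naive and 0.94 (22 counts) after primed conversion, and it was at 2.74 (42 counts) in R1 ESCs-primed. Both Oct4GFP- libraries were above the other 5, as for 22.7% of all genes. The ratio of sorted GFP- to GFP+ cells was 203 in mES medium (interval 57.5 to 1728) and 13.5 in 5C medium (9.03 to 20.9). In TPM the order of the 4 highest Osmr libraries was that of the 4 highest fibroblast marker sums. The lowest of these, the primed library, did not differ from 5C-Oct4GFP+ cells beyond counting error (ratio 1.08, interval 0.58 to 1.95). In CPM it lay below 5C-Oct4GFP+ cells, at 1.91 against 2.59. The fibroblast genes Col1a1, Col3a1 and Prrx1 were at 160, 140 and 87.9 TPM in the GFP- library from mES medium and at 45.0, 71.7 and 18.4 in that from 5C medium. Of the 10 fibroblast markers 6 were past 2-fold lower in the 5C library and 1, Thy1, was higher, at 53.3 against 8.73 TPM. Lum and Dcn were also higher there, by less than 2-fold. The part of fibroblasts in the Osmr levels was not tested.

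Among 6 further receptor genes, Cntfr, which encodes the ciliary neurotrophic factor chain that joins LIFR and gp130, was at 58.7 TPM in primed cells and 68.6 in R1 ESCs-primed, against 0.72 in naive and 4.22 in 5C-Oct4GFP+ cells. Il6ra, the interleukin-6 chain, was higher in naive than in primed cells, with 9.78 TPM against 0.97, and was at 1.27 TPM in R1 ESCs-primed. In the sorted GFP- libraries with mES and 5C medium Il6ra was at 20.3 and 16.6 TPM and Cntfr at 13.1 and 17.5 TPM. Il11ra1, the interleukin-11 chain, was highest in 5C-Oct4GFP- cells at 56.6 TPM, against 19.1 in mES-Oct4GFP- cells.

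The 2 kinases shared their order at the top and differed in range. Jak1 was at 70.3 TPM in mES-Oct4GFP- cells, 52.5 in 5C-Oct4GFP- cells, 33.2 in R1 ESCs-primed, 29.5 in 5C-Oct4GFP+, 28.5 in primed, 22.8 in mES-Oct4GFP+ and 18.0 in naive cells, a range of 3.90-fold. Jak2 was at 38.0 TPM in mES-Oct4GFP- cells, 19.9 in 5C-Oct4GFP- cells, 9.12 in R1 ESCs-primed, 8.85 in primed, 4.48 in mES-Oct4GFP+, 2.65 in naive and 2.16 in 5C-Oct4GFP+ cells, a range of 17.6-fold. Jak1 exceeded Jak2 in every library, by 1.85-fold in mES-Oct4GFP- cells (interval 1.70 to 2.02) and by 13.7-fold in 5C-Oct4GFP+ cells (10.5 to 18.1). As for Osmr in TPM, the 4 libraries with the highest Jak2 were those with the highest fibroblast marker sums. The part of fibroblasts in these levels was not tested.

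Stat3, the transcription factor of the route, was at 113 TPM in mES-Oct4GFP-, 105 in 5C-Oct4GFP-, 76.6 in naive, 64.1 in mES-Oct4GFP+ cells, 52.5 in 5C-Oct4GFP+ cells, 29.1 in R1 ESCs-primed and 21.8 in primed cells. All 6 pairs of neighbours in this order differed beyond counting error, the narrowest being the 2 Oct4GFP- libraries at 1.08-fold (interval 1.01 to 1.15). Of 8 other kinases and STATs of the family, Stat5b and Stat5a, which transmit growth hormone and cytokine signals, were also highest in the Oct4GFP- libraries, Stat5b with 17.4 and 19.95 TPM against 0.57 to 9.99 in the other 5. Jak3, a kinase of the common gamma chain receptors, was at 8.58 and 10.2 TPM in the primed libraries and at 21.9 or more in the others.

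Socs3, the feedback inhibitor, was at 149 TPM in 5C-Oct4GFP+ cells, 139 in mES-Oct4GFP- cells, 111 in 5C-Oct4GFP-, 65.7 in naive, 39.6 in mES-Oct4GFP+ and 7.54 (108 counts) in primed cells and 7.13 (68 counts) in R1 ESCs-primed. The 2 primed libraries did not differ beyond counting error, and the next library was 5.25-fold above them (interval 4.21 to 6.59). Set against the transcription factor itself, Stat3 had 0.35 TPM per TPM of Socs3 in 5C-Oct4GFP+ cells. The ratio was between 0.81 and 1.62 in the other libraries outside the primed state, against 2.89 and 4.09 in the primed libraries. Stat3 thus varied less than Socs3, by 5.21-fold against 20.9-fold.

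Pim1, which encodes a serine/threonine kinase that favours survival and self-renewal, was at 89.7 TPM in mES-Oct4GFP+, 88.7 in naive, 54.6 in 5C-Oct4GFP+, 42.1 in 5C-Oct4GFP- cells, 35.0 in mES-Oct4GFP- cells, 16.4 in R1 ESCs-primed and 11.1 in primed cells. It shared its lowest libraries with Socs3 and not its highest. Pim1 led in mES-Oct4GFP+ and naive cells, which did not differ beyond counting error, while Socs3 had its lowest levels outside the primed state in those 2 libraries.

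To compare the media in sorted cells, 5C-Oct4GFP+ was set against mES-Oct4GFP+. Socs3 was 3.76-fold higher (interval 3.35 to 4.24) and Lifr 2.44-fold higher (2.17 to 2.74) in 5C-Oct4GFP+ cells, and no member was past 2-fold lower. These were 2 of the 8 members that reached 1 TPM, against 13.7% of all genes past 2-fold higher and 13.5% lower. Il6st, Pim1 and Lif had ratios of 0.59, 0.61 and 0.55, with intervals below 1, so that the 2 receptor chains of the LIF complex differed in opposite directions. Jak2 was 2.07-fold lower in TPM (1.46 to 2.97) and missed the limit on the log2(TPM + 1) scale with a difference of -0.79. Osmr, at under 1 TPM in both, was not counted. In the sorted GFP- cells, 5C-Oct4GFP- against mES-Oct4GFP-, Osmr was the only member past 2-fold, 2.42-fold lower (2.07 to 2.82), where 9.68% of genes were higher and 10.1% lower. Jak2 was 1.91-fold lower there, short of the limit on the log2(TPM + 1) scale. Of the 10 fibroblast markers 6 were past 2-fold lower and 1 higher in the same comparison, and their part in the Osmr difference was not tested.

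Between sorted fractions, mES-Oct4GFP+ cells had more Pim1 than mES-Oct4GFP- cells, by 2.56-fold (interval 2.27 to 2.90), and less Osmr, Jak2, Socs3 and Jak1. Jak2 was 8.48-fold lower (6.67 to 10.9), Socs3 3.51-fold (3.11 to 3.97) and Jak1 3.08-fold lower (2.75 to 3.47). These 1 higher and 4 lower of 9 members stood beside 17.9% of genes higher and 28.8% lower. In 5C medium 2 members, Osmr and Jak2, were past 2-fold lower in Oct4GFP+ than in Oct4GFP- cells and none was higher, beside 8.45% of genes higher and 22.6% lower. Jak2 was 9.19-fold lower (7.01 to 12.3). Stat3 was 2.01-fold lower in TPM and missed the limit on the log2(TPM + 1) scale with a difference of -0.99. Socs3 and Lifr, which were lower in the GFP+ fraction with mES medium, were 1.35-fold and 1.36-fold higher in it with 5C medium. Il6st showed the opposite, with a ratio of GFP+ to GFP- cells of 1.43 (1.32 to 1.56) in mES and 0.73 (0.68 to 0.80) in 5C medium. All 10 fibroblast markers with mES medium, and 9 of 10 with 5C medium, were past 2-fold lower in Oct4GFP+ cells, and their part in these differences was not tested.

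**Figure D3:**
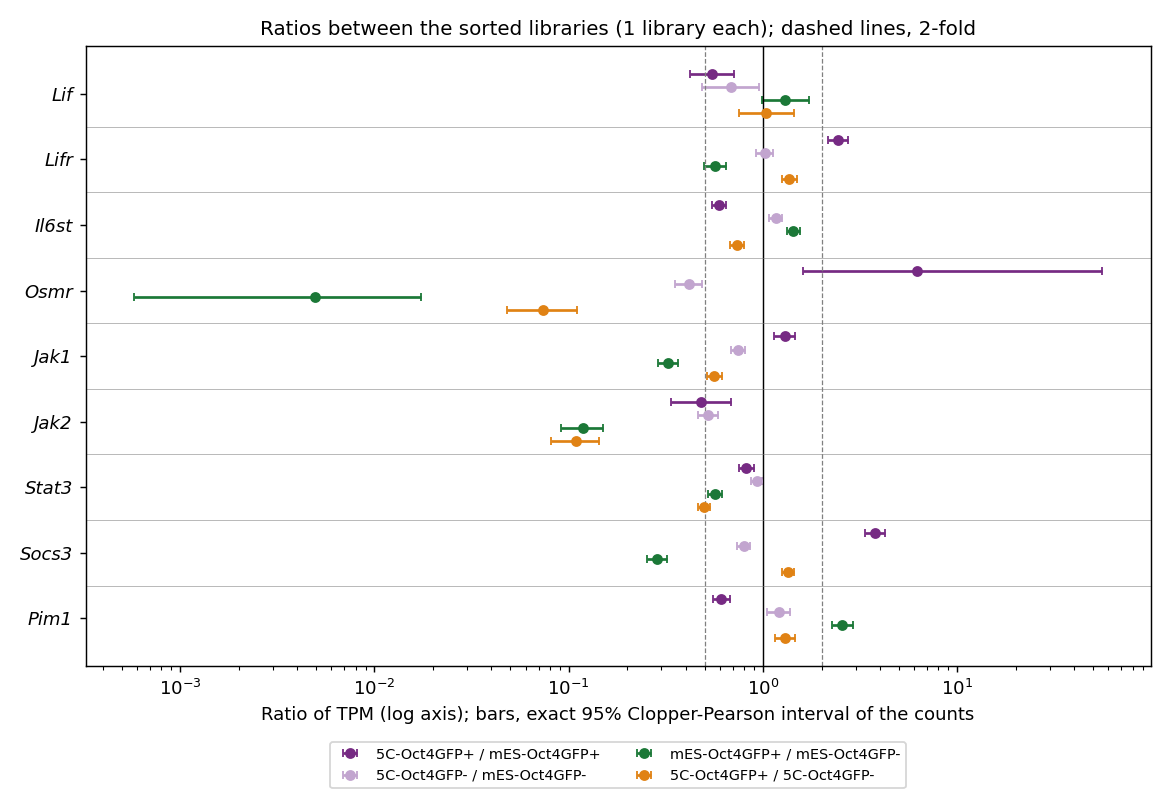
Ratio of TPM (x axis, log scale) for each of the 9 genes (y axis) in the 4 comparisons of sorted libraries, with exact 95% Clopper-Pearson intervals of the counts and dashed lines at 2-fold. Socs3, Lifr and Il6st were on opposite sides of 1 in the 2 comparisons of GFP+ with GFP- cells, and Osmr and Jak2 were below 1 in both.

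The converted libraries were then set against the 5C-Oct4GFP+ cells they came from. The converted libraries had 20 passages and the sorted ones 0. Medium and time in culture therefore cannot be told apart wherever a converted library is set against a sorted one. In naive medium Lifr was 2.38-fold lower (interval 2.16 to 2.64) and Socs3 2.27-fold lower (2.09 to 2.47) than in 5C-Oct4GFP+ cells, and none of 8 members reaching 1 TPM was past 2-fold higher, beside 10% of genes higher and 17.5% lower. Pim1, Stat3 and Il6st were 1.62-fold, 1.46-fold and 1.44-fold higher, each with an interval above 1. The naive library was next set against mES-Oct4GFP+ cells. Between those 2, no member was past 2-fold in either direction, where 2.49% of genes were higher in naive cells and 6.27% lower. Lifr and Pim1 did not differ beyond counting error, with ratios of 1.02 (0.89 to 1.17) and 0.99 (0.90 to 1.09), while Socs3 was 1.66-fold higher in naive cells (1.45 to 1.89) and Lif 1.88-fold lower (1.43 to 2.48).

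In primed medium 5 of 8 members reaching 1 TPM were past 2-fold lower than in 5C-Oct4GFP+ cells and 1 was higher, beside 16.1% of genes lower and 13.7% higher. Socs3 was 19.8-fold lower (interval 16.3 to 24.2), Pim1 4.93-fold (4.18 to 5.82), Lifr 4.44-fold (3.92 to 5.06), Stat3 2.41-fold (2.16 to 2.69) and Il6st 2.19-fold lower (1.97 to 2.44). Jak2 was 4.10-fold higher (3.09 to 5.52), and Jak1 did not differ beyond counting error, with a ratio of 0.97 (0.88 to 1.07). In the same pair of libraries 9 of 10 fibroblast markers were past 2-fold higher in primed cells, such as Col1a1 at 13.3 against 1.5 TPM, and their part in the Jak2 difference was not tested.

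The comparison of naive with primed cells shares the primed library with the one before. Socs3 was 8.71-fold (interval 7.11 to 10.7), Pim1 8.0-fold (6.82 to 9.41), Stat3 3.52-fold (3.16 to 3.91) and Il6st 3.15-fold higher in naive cells (2.84 to 3.51). Jak2 was 3.34-fold lower (2.53 to 4.48), and Lifr was 1.86-fold higher (1.61 to 2.16), short of the limit. These 4 higher and 1 lower of 8 members stood beside 16.7% and 22.2% of genes. Of the 10 fibroblast markers 8 were past 2-fold lower in naive cells and 1 higher, and their part in the Jak2 difference was not tested.

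The 2 primed libraries, one converted from 5C-Oct4GFP+ cells and one from the R1 line, had no member past 2-fold apart, where 2.30% of genes were higher in the converted cells and 5.09% lower. Lifr, Il6st, Jak2 and Socs3 did not differ beyond counting error, with intervals of the ratio of 0.79 to 1.16, 0.91 to 1.19, 0.80 to 1.18 and 0.77 to 1.45. Pim1, Stat3 and Lif were lower in the converted cells, with ratios of 0.68, 0.75 and 0.70. Osmr was 2.91-fold lower in TPM (1.71 to 5.16) on 22 and 42 counts, and 9 of 10 fibroblast markers were past 2-fold lower as well.

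**Figure D4:**
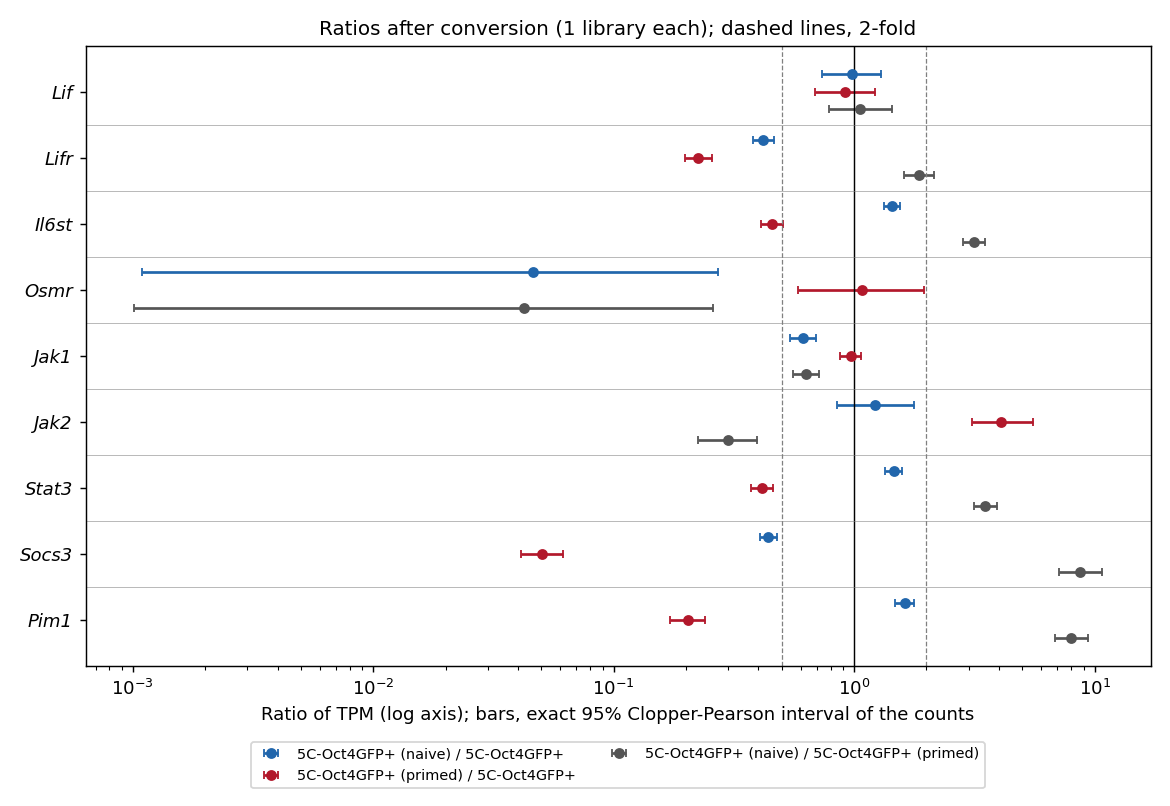
Ratio of TPM (x axis, log scale) for each of the 9 genes (y axis) after conversion of 5C-Oct4GFP+ cells in naive or primed medium and between the 2 converted libraries, with exact 95% Clopper-Pearson intervals of the counts and dashed lines at 2-fold. Socs3 was 19.8-fold lower and Jak2 4.10-fold higher in primed than in 5C-Oct4GFP+ cells.

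Of 17 further genes listed as STAT3 targets in pluripotent cells, 13 were past 2-fold lower in primed than in 5C-Oct4GFP+ cells and 1 was higher, beside 16.1% and 13.7% of all genes. Their median difference of log2(TPM + 1) was -2.21, against 0.06 over all genes. Tfcp2l1, a naive-state transcription factor, was at 194 TPM in mES-Oct4GFP+, 153 in naive, 29.1 in 5C-Oct4GFP+, 0.54 in primed cells and 0.82 in R1 ESCs-primed. Tbx3, a T-box factor of naive cells, was at 74.6, 94.4, 48.0, 0.70 and 1.53 TPM in the same order, and Gbx2, a homeobox gene, at 81.6, 67.5, 57.8, 1.42 and 9.76.

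The exception was Pim2, a kinase related to Pim1, at 162 TPM in 5C-Oct4GFP+ and 22.6 in naive cells but 898 in primed cells and 754 in R1 ESCs-primed. The 3 Pim genes therefore had different profiles, since Pim3 was highest in 5C-Oct4GFP+ cells at 227 TPM and lay between 24.1 and 132 elsewhere. After naive conversion 7 of the 17 listed targets were past 2-fold lower than in 5C-Oct4GFP+ cells and 3 were higher. Of all genes 17.5% were lower and 10% higher. The median difference of log2(TPM + 1) in that pair was -0.141, against -0.102 over all genes. Between naive and primed cells 9 of the 17 were past 2-fold higher in naive cells and 5 lower, beside 16.7% and 22.2% of all genes. Between naive and mES-Oct4GFP+ cells 1 was lower and none higher, beside 6.27% and 2.49%.

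In the Oct4GFP- libraries the list did not move as a block. Against mES-Oct4GFP- cells, mES-Oct4GFP+ cells had 8 of 17 past 2-fold higher and 7 lower, beside 17.9% and 28.8% of all genes. Fos, an immediate early gene, was at 815 TPM with mES and 821 with 5C medium in the GFP- cells, against 1.33 and 228 in the GFP+ cells. Id1, a BMP-responsive inhibitor of differentiation, was at 414 and 391 against 4.19 and 98.2 TPM. Klf4 and Myc, both among the 17, were also delivered as retroviral cDNAs, which may be counted with the cells' own genes. Their levels of 1613 and 1884 TPM in mES-Oct4GFP- cells therefore do not measure the endogenous loci alone. In the GFP+ cells, 5C medium gave 7 of the 17 past 2-fold higher than mES medium and 4 lower, beside 13.7% and 13.5% of all genes. Pramel7 was among the lower, at 1.16 against 30.6 TPM.

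**Figure D5:**
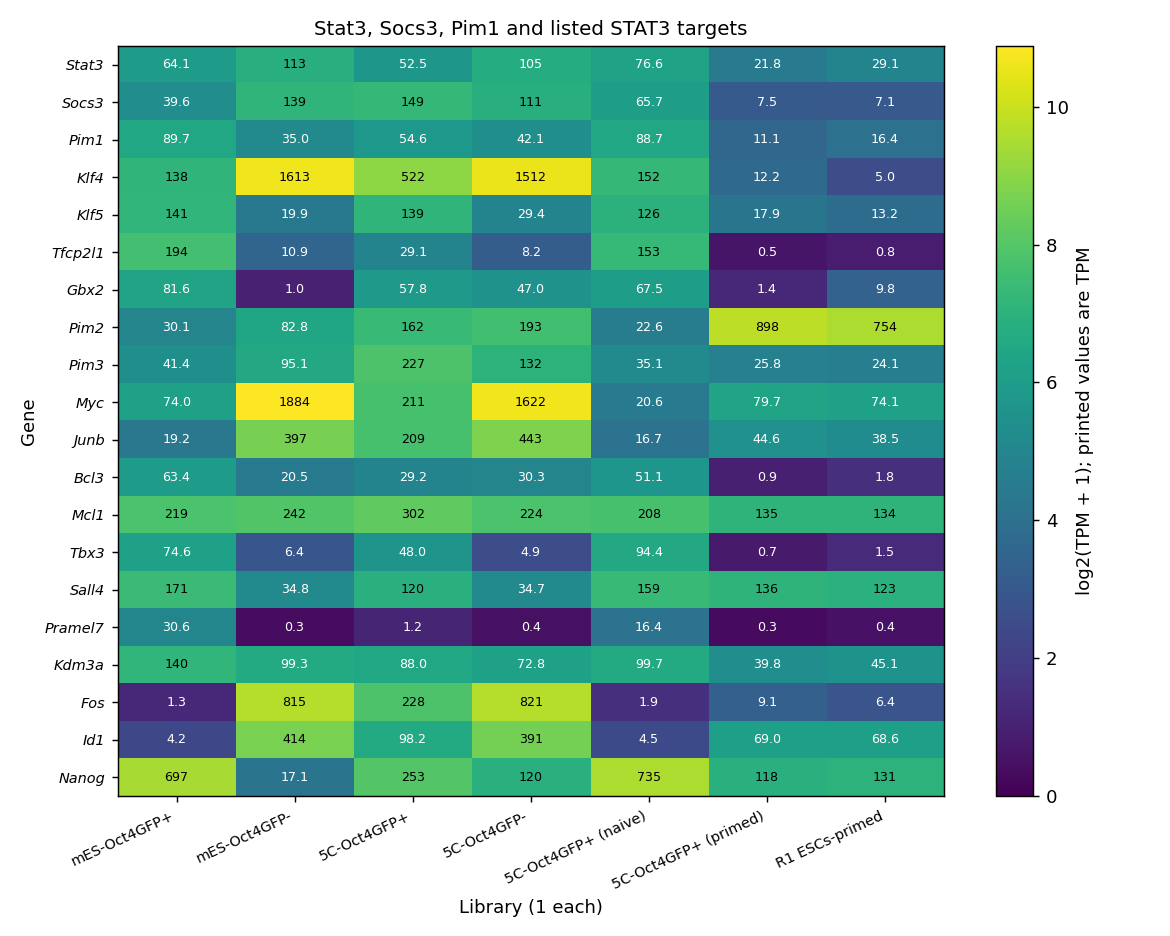
Heat map of log2(TPM + 1) for Stat3, Socs3, Pim1 and 17 listed STAT3 targets (rows) in the 7 libraries (columns), with TPM printed in each cell. In the 2 primed libraries Tfcp2l1 was below 1 TPM and Pim2 was at 898 and 754 TPM.

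A second list held 12 STAT3 targets of the acute-phase response, 11 of which were measured. Saa3, encoding a serum amyloid, and Icam1, an adhesion molecule, were at 34.7 and 70.7 TPM in naive cells and at 0.35 and 5.27 in primed cells. Cebpb, a transcription factor of that response, was at 1.76 TPM in naive and 27.6 in primed cells, and in this comparison 3 of the 11 were past 2-fold higher in naive cells and 3 lower, beside 16.7% and 22.2% of all genes. Lbp, which encodes the lipopolysaccharide-binding protein, was at 19.5 and 25.7 TPM in the Oct4GFP- libraries and below 1 TPM in the other 5. Of the 11, 8 were past 2-fold lower in mES-Oct4GFP+ than in mES-Oct4GFP- cells and 2 higher, beside 28.8% and 17.9% of all genes. All 10 fibroblast markers were lower in the same comparison, and their part in this count was not tested. In primed against 5C-Oct4GFP+ cells 4 of the 11 were lower and 2 higher, beside 16.1% and 13.7%.

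Of 16 other negative regulators listed, 3 were past 2-fold higher with 5C than with mES medium in the GFP+ cells and none lower, beside 13.7% and 13.5% of all genes. These were Socs2, at 173 against 54.9 TPM, Cish, at 18.5 against 5.61 TPM, and the phosphatase gene Ptprt, at 2.77 against 0.09 TPM. Cish, like Socs3, was past 2-fold lower in mES-Oct4GFP+ than in mES-Oct4GFP- cells and lower after conversion to either state, at 2.43 TPM in naive and 4.73 in primed cells. Socs2 was at 129 and 123 TPM in the primed libraries, where Socs3 was at its lowest. In primed against 5C-Oct4GFP+ cells 2 of the 16 were lower and 2 higher, beside 16.1% and 13.7% of all genes. Ptpn11, the phosphatase SHP2 that gp130 recruits, was at 69.7 against 33.3 TPM in that pair.

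The genes most like each member were those with the highest Pearson correlation of log2(TPM + 1) over the 7 libraries among 11751 genes. With 7 points and so many genes compared, these values only describe the profiles. The nearest to Socs3 were Irak3, Ncoa1 and Ly6e (r = 0.99, 0.99 and 0.98), and the nearest to Stat3 were Ripk3, Maml2 and A530017D24Rik (each 0.99). Pim1 was closest to Gm37954 (r = 0.997), which lies on chromosome 1, had 11.2 to 95.6 TPM and shares no run of 25 bases with Pim1 transcripts. Lifr was closest to Epas1, Map4k3 and Ptp4a3 (0.99, 0.99 and 0.98), Il6st to Lima1, Erlin1 and Zfp935 (each 0.99), and Lif to Ten1, Gm14391 and Vps35l (0.94, 0.94 and 0.93). Osmr was closest to Tmem35a, Paip1 and Hoxc6 (0.998, 0.997 and 0.995), Jak1 to Fam120b, Foxk1 and Anxa1 (0.998, 0.997 and 0.997), and Jak2 to Gm20659, Sh3bp5 and Tmed4 (0.995, 0.994 and 0.994).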

How the data were processed

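Total RNA was extracted with TRIzol, prepared with a TruSeq kit and sequenced on a MiSeq. Per the labels, the authors aligned reads with Bowtie and quantified genes with RSEM on mm10 (versions not given in the sources used here). The deposited table of each of the 7 libraries gave expected counts (not whole where reads were shared between genes, and rounded here), TPM and FPKM, the last used in an alternative only, as well as gene lengths. The authors' TPM and FPKM are scaled within a library, so a few very abundant genes lower all others. Differences are of log2(TPM + 1), and a gene entered the counts when either library had a TPM of 1 or more. As each group was a single library, no test was run. Ratios have exact Clopper-Pearson and levels exact Poisson 95% intervals (Python 3.11.15, scipy 1.17.1, pandas 2.3.3), and the functions were tested on simulated data. Groups were set side by side in 9 comparisons. The 6 pathway lists held 68 genes, 67 of them measured. Named were all 9 members, up to 3 genes of a list with the greatest differences past 2-fold in a comparison, and the 3 genes most like each member among those at 10 TPM or more in any library. Ctf1, Il27, Il31, Pim3, Cd68, Cdh5, Lef1 and Pou5f1 are named outside this rule, after their values were seen. The members and lists were chosen with earlier results of these data known. Coordinates are from GENCODE M21. Alternatives were a pseudocount of 0.1, median-of-ratios rescaling, FPKM, CPM (counts scaled to library size, with no length correction), no filter and a minimum of 5 TPM. A gene of the receptor list is not reported here.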

Additional observations from a re-analysis of the deposited data

Results flagged for a closer look

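For 6 members the difference between 5C and mES medium went in opposite directions in Oct4GFP+ and Oct4GFP- cells, or the difference between GFP fractions did so in the 2 media. Each value below is the 5C minus mES difference of log2(TPM + 1) in Oct4GFP+ cells less that in Oct4GFP- cells, from 4 libraries. These differences were not tested, as each group had 1 library. Socs3 had 2.21, from a difference of 1.89 in GFP+ and -0.33 in GFP- cells. Lifr had 1.20, with 1.22 in GFP+ and 0.03 in GFP- cells. Osmr had 1.92, although its GFP+ levels rested on 2 and 27 counts. Jak1 had 0.77. Il6st had -0.94 and Pim1 -0.97, both lower with 5C medium in GFP+ and higher in GFP- cells. The remaining members had -0.29 (Lif), 0.11 (Jak2) and -0.18 (Stat3). Fibroblast markers summed to 596 and 281 TPM in the GFP- libraries with mES and 5C medium and to 14.3 and 11.1 in the GFP+ libraries, and their part in these values was not tested.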

How the results depend on the processing

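The count of members past 2-fold stayed within 1.5 times the reported count under all 6 alternatives in 8 of the 9 comparisons. In primed against R1 ESCs-primed, where none was past 2-fold, 1 was (Osmr, lower) with a pseudocount of 0.1 and with CPM. For the 67 other pathway genes, the count in naive against mES-Oct4GFP+ cells was 2 and became 8 with a pseudocount of 0.1, 4 with median-of-ratios rescaling, 4 with CPM and 1 with a minimum of 5 TPM. In primed against R1 ESCs-primed it was 5 and became 9 with a pseudocount of 0.1 and 3 with CPM. A smaller pseudocount widens differences of genes near 0 by construction, and a higher minimum tests fewer genes. For the other settings the cause was not tested. Of 324 recomputed member differences 9 changed sign, none of them at 0.5 or more on the log2 scale or past 2-fold. They belonged to Lif (naive against 5C-Oct4GFP+), Osmr (primed against 5C-Oct4GFP+), Pim1 (naive against mES-Oct4GFP+), and Il6st and Socs3 (primed against R1 ESCs-primed). Median-of-ratios rescaling moved the median of all genes by 0.11 to 0.20 in 5 comparisons. No paired analysis was possible because each group had 1 library. Counting error limits Osmr in GFP+ cells, at 1 to 27 counts, and Lif, at 61 to 131.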
